A study of Mus musculus with 2 samples.

Results

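The cells described here were 337 macrophages of EO771-HEVM3 primary tumours that carried transcripts of Gpnmb, Lpl and Mmp12. They were chosen by measured values from 12427 deposited tumour cells, of which 9989 had over 200 detected genes and at most 5% mitochondrial transcripts. A cell was selected on at least 3 UMIs (unique molecular identifiers, each counting 1 captured transcript) of the myeloid gene Lyz2 and a sum of at least 5 UMIs over Gpnmb, Lpl and Mmp12. It also had at most 1 UMI of the CD3 genes Cd3d, Cd3e and Cd3g, under 30 of Krt8 and Krt18, and under 10 of Col1a1 and Col3a1. The 337 cells were 3.37% of the tumour cells within the limits (95% interval 3.03 to 3.75) and 39.2% of the 860 Lyz2 cells that met the T cell, keratin and collagen limits. The sum of the 3 genes alone set the cut, so the levels of Gpnmb, Lpl and Mmp12 are given below as a description.

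The series held 2 droplet libraries of 3′ transcript counts, 1 per tissue, from the primary tumours and the lymph nodes of 6 C57BL/6J mice. The tumours were grown from EO771-HEVM3 cells, where EO771 names a breast cancer cell line of the mouse and HEVM3 a subline selected in mice for cells that left lymph nodes through high endothelial venules and settled in the lung. The mice of a tissue were pooled and their cells carry no mouse label, so each tissue counts as 1 sample. No difference given here therefore has a replicate check, no test was run, and the bracketed 95% intervals (exact Poisson for levels, exact Clopper-Pearson for shares, the exact split of the counts for ratios) cover counting error only.

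Macrophages that express Gpnmb, Lpl, Spp1, Trem2 and Cd36 are found in fat tissue, atherosclerotic plaques, damaged nerve tissue and tumours, and are often called lipid-associated. They take up lipid and cell debris, break it down in lysosomes and secrete enzymes that act on the matrix. Gpnmb encodes a transmembrane glycoprotein of lysosome-rich cells, Lpl the lipase that frees fatty acids from lipoproteins, and Mmp12 the macrophage elastase. C1q macrophages, another common state in tumours, are named for the complement subunits C1qa, C1qb and C1qc, and monocytes are the blood cells from which many tumour macrophages arise.

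The genes that chose the cells lie on different chromosomes of the GRCm38 build, all on the plus strand: Gpnmb (ENSMUSG00000029816) at chr6:49036546-49070929, Lpl (ENSMUSG00000015568) at chr8:68880491-68907448 and Mmp12 (ENSMUSG00000049723) at chr9:7344381-7369499. RefSeq upstream sequence was at hand for Gpnmb and Mmp12, and the 250 bases before their starts are shown because these genes define the cells. The Gpnmb window is chr6:49036268-49036517 and overlaps no annotated exon of the gene. The Mmp12 window shown, chr9:7347124-7347373, is the window of this gene that held matches. It precedes the second of its RefSeq starts, lies within the gene and covers none of its exons. Each was searched on both strands for the AP-1 motif TGANTCA, the E-box CACGTG and the M-box CATGTG, letters read by the AP-1 and MITF-TFE families of transcription factors. Capitals mark matches.
Gpnmb: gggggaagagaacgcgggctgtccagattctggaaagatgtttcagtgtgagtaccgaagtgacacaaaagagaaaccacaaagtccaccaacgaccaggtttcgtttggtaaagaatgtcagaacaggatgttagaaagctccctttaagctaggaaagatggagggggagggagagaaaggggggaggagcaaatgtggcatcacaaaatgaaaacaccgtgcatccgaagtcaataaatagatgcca
Mmp12: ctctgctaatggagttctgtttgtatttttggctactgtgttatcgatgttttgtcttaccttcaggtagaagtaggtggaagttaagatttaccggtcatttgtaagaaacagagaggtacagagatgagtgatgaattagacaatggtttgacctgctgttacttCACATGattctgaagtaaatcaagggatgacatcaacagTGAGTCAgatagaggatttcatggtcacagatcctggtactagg
The Mmp12 window held an AP-1 match that began 44 bases before the start and an M-box match, on the other strand, that began 83 bases before it, and the matches do not overlap. The Gpnmb window held 0 matches, as did the windows of Ctsk and Acpp. The window of the other Mmp12 start, chr9:7344147-7344396, which lies at the annotated start of the gene, also held 0. Of 32851 windows of this length before mouse gene starts, 6.75% held the AP-1 motif, 6.02% the E-box and 12.3% the M-box.

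The library labelled primary tumour held 173317475 UMIs, with a median of 9161 per cell, and the lymph node library held 122207852 UMIs in 11617 cells. The 337 macrophages held 1967797 UMIs, with a median of 4752 UMIs per cell (lowest 617, highest 25460) and a median of 1775 detected genes. The libraries shared 47 cell barcodes, of which 2 belonged to these macrophages. In the lymph node the same rule found 5 cells, 0.0444% of the 11269 within the limits (0.0144 to 0.104).

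**Figure D1:**
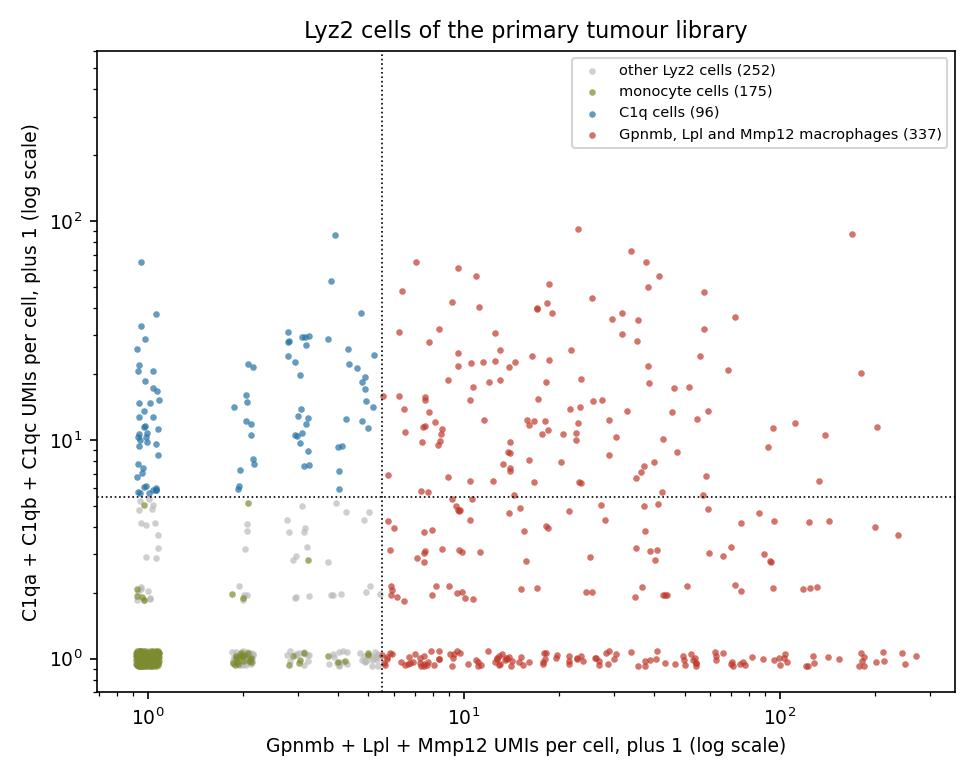
Each point is 1 of the 860 Lyz2 cells of the primary tumour library that met the T cell, keratin and collagen limits, with the summed UMIs of Gpnmb, Lpl and Mmp12 on the horizontal axis and of C1qa, C1qb and C1qc on the vertical axis (both plus 1, log scales, points spread slightly). Dotted lines mark the limit of 5 UMIs, colours the groups, and the 337 macrophages spread over all C1q levels, with 126 of them at 5 or more C1q UMIs.

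Mmp12 gave 56.7% of the UMIs in the sum that chose the cells, Lpl 28.4% and Gpnmb 14.9%. The summed UMIs per cell had a median of 18 and reached 275, so the group ran over a wide range above the cut and did not form a single level. All 3 genes were found in 161 of the 337 cells (47.8%), Lpl with Mmp12 in 68, Gpnmb with Lpl in 35 and Gpnmb with Mmp12 in 21. A single gene carried the rest, Mmp12 in 39 cells, Lpl in 9 and Gpnmb in 4. In UMIs per 1000000 UMIs of the summed cells (CPM), Gpnmb stood at 985, Lpl at 1878 and Mmp12 at 3753. The highest single cells held 78 UMIs of Gpnmb, 99 of Lpl and 180 of Mmp12. Of all UMIs of each gene within the limits of the tumour library, these cells held 66.9% for Mmp12 and 49.5% for Gpnmb but 29.4% for Lpl, of which keratin-positive cells (Krt8 and Krt18 at 30 or more) held 50.5%.

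Genes differed in how they changed near the cut. The 46 cells just inside (a sum of 5 or 6) had 2625 CPM of Prdx1 and 485 CPM of Cd36, and the 64 cells just outside (3 or 4) had 1929 and 296 CPM. The 166 cells with a sum of at least 20 had 11254 CPM of Prdx1 and 1169 CPM of Cd36, so that for both genes the cells beside the cut lay closer to each other. Spp1 had no steady order, at 659 CPM at a sum of at least 20, 473 just inside, 150 just outside and 368 in the 127 cells with a sum of 1 or 2.

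The label was checked against markers that the rule did not use. Cd68, a glycoprotein of macrophage lysosomes, was found in 63.8% of the cells, Adgre1, the F4/80 antigen, in 51.6% and Csf1r, the receptor for macrophage growth factor, in 61.1%. Since a deeper cell shows more genes, shares were also computed with every cell thinned to 1000 UMIs, which left out 3 of the macrophages and 22 of the 344 T cells but none of the other groups. At that depth Cd68 was found in 24.6% of these cells (20.1 to 29.6), Adgre1 in 18.0% (14.0 to 22.5) and Csf1r in 20.4% (16.2 to 25.2). T cells, which should lack these genes and had a median of 2096 UMIs, gave 0.290%, 0.363% and 0.127%. Cxcl5, listed among the marks of these cells, was found in 49 of them (14.5%), and in 9.18% at equal depth (6.31 to 12.8), against 0.329% of T cells and 1.21% of keratin cells. All 3 macrophage markers thus stood above their share in T cells, and Cxcl5 marked a minority of the cells.

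**Figure D2:**
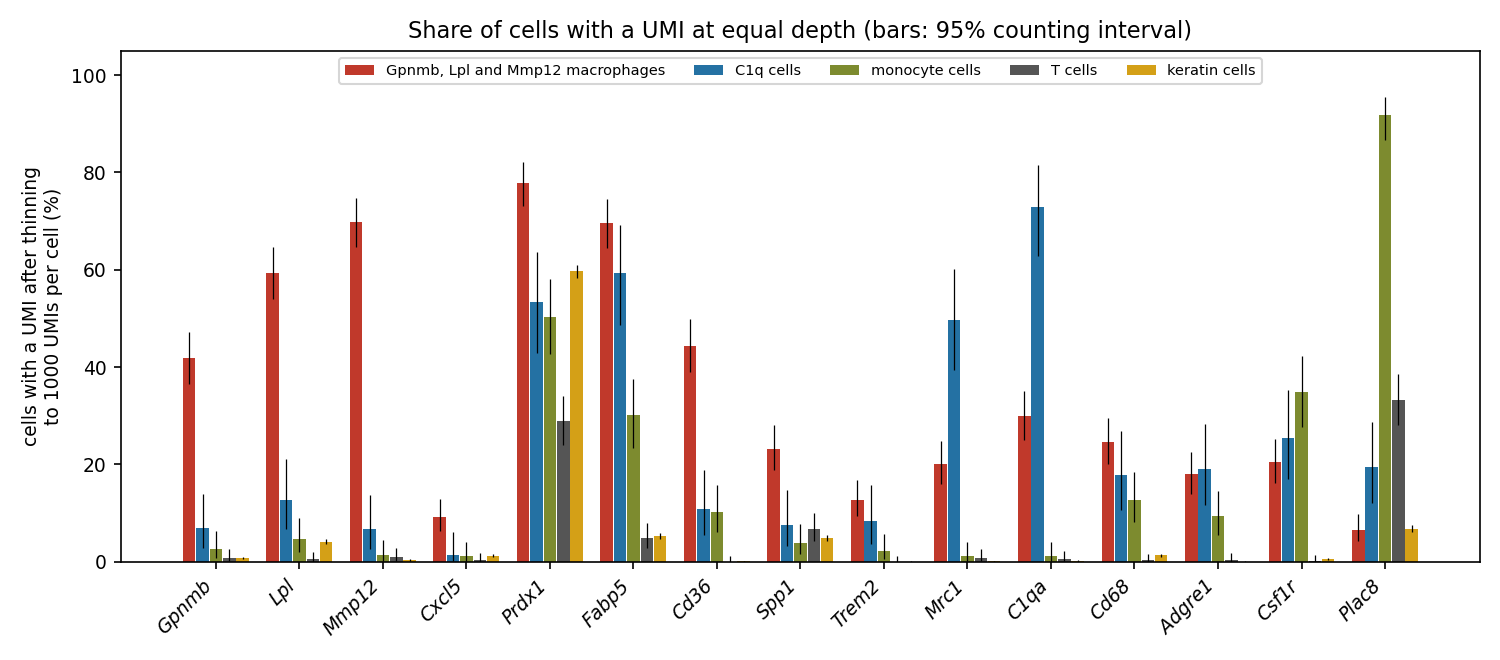
Share of cells with at least 1 UMI of each gene after thinning every cell to 1000 UMIs, for 5 groups of the primary tumour library (bars, with 95% counting intervals). Gpnmb, Lpl, Mmp12 and C1qa took part in choosing cells, and of the other genes Cd36 was found in 44.4% of the Gpnmb, Lpl and Mmp12 macrophages, 10.9% of C1q cells and 0% of T cells.

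Markers of other cells were low. The rule itself limits Krt8 and Krt18 among the cancer markers and the CD3 genes among the T cell markers. Keratin cells were also chosen by Krt8 and Krt18, so these levels were partly set by the choice of cells. Summed over 8 genes, markers of cancer cells stood at 354 CPM in these macrophages, at 567 CPM in C1q cells and at 4450 CPM in keratin cells. The 6 T cell markers summed to 9.66 CPM, the 5 B cell markers to 5.59, the 6 endothelial markers to 27.4, the 8 dendritic cell markers to 32.5 and the 8 neutrophil markers to 104, with 4 of the 8 neutrophil markers at 0. The neutrophil sum was 55.5 CPM in C1q cells and 272 in monocyte cells, and S100a8 was over 2-fold higher here than in C1q cells (1.45, 0.69 to 2.44). Haemoglobin and Alas2 transcripts, 5 erythroid genes, summed to 156 CPM here, 731 in C1q cells, 25.4 in monocyte cells and 2501 in T cells. Their part in the results below was not tested. Under a stricter keratin limit of fewer than 5 UMIs, 316 cells remained and the 38 leading genes below kept their direction.

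The main comparison was with 96 C1q cells of the same library, which held at least 5 UMIs over C1qa, C1qb and C1qc and fewer than 5 over Gpnmb, Lpl and Mmp12 (median 4010 UMIs per cell). It asks what else differs between these 2 descriptions of a tumour macrophage. Among 3307 genes with at least 100 UMIs in both groups together, 151 were over 2-fold higher in the Gpnmb, Lpl and Mmp12 macrophages, 4.57% of those measured, and 126 were over 2-fold lower, 3.81%. The median log2 ratio over all 3307 genes was −0.04. Of the 337 cells, 126 (37.4%) also held 5 or more C1q UMIs, so the groups were not split by C1q alone.

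The higher genes that ranked first, by the end of the counting interval nearest to 0, were Cxcl5, Acpp, Prdx1, Hvcn1, Ctsk, Cd36, Met, Bhlhe41, Spp1, Fpr2, Cyb5a and Ppfibp2. Prdx1, a peroxiredoxin that removes peroxides, reached 8085 CPM (7960 to 8211) against 1067 CPM (972 to 1169) in C1q cells, a log2 ratio of 2.92 (2.79 to 3.06). Per cell it ran from 0 to 538 UMIs in 10000, with a median of 27.5, against 7.36 in C1q cells. The groups overlapped, and 255 of the 337 cells (75.7%) lay above the C1q cells' median. Cd36, a receptor for fatty acids and oxidised lipoproteins, stood at 882 CPM against 134 (log2 ratio 2.70, 2.34 to 3.12). It was found in 244 of the 337 cells (72.4%) and in 28 of the 96 C1q cells. Spp1, which encodes osteopontin, stood at 612 CPM against 92.6 (2.71, 2.27 to 3.22), and T cells of the library had 234 CPM. Of the Spp1 UMIs, 26.1% came from 5 cells.

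Enzymes and a proton channel were among them. Ctsk, cathepsin K, the collagen-degrading protease of osteoclasts, had 133 UMIs in 69 cells and 1 UMI in the C1q cells, a log2 ratio of 4.29 with an interval of 2.37 to 10.2. When cells were chosen without Gpnmb in the sum, the ratio of Ctsk was 1.26. Acpp, an acid phosphatase, had 122 UMIs in 53 cells and 0 in the C1q cells, and was at least 8.93-fold higher against a limit of 3 UMIs. Hvcn1, the voltage-gated proton channel of phagocytes, stood at 182 CPM against 13.9 (3.60, 2.58 to 5.17). These were genes of low counts, and their intervals span more than 2 units of log2. Met, the receptor for hepatocyte growth factor, stood at 230 CPM against 25.5 (3.11, 2.32 to 4.19), and Bhlhe41, a transcription factor of the basic helix-loop-helix family, at 101 CPM against 6.94, the latter from 3 UMIs (3.65, 2.30 to 6.15). Monocyte cells, the second comparison below, had 151 CPM of Met and 0 of Bhlhe41.

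Cxcl5, a chemokine that attracts neutrophils, ranked first and was spread unevenly. Its 907 UMIs (461 CPM) came from 49 cells, 5 of which held 50.6% of them, and the highest cell held 164. The C1q cells had 10 UMIs in 3 cells (23.1 CPM), a log2 ratio of 4.25 (3.43 to 5.38). Of the 10 UMIs in C1q cells, 8 lay in 1 cell. Monocyte cells had 80.2 CPM of Cxcl5, and the log2 ratio over them was 2.51 (2.07 to 3.01). Without the cell with the most Cxcl5 UMIs in each group, the level of Cxcl5 was 380 CPM in the macrophages and 4.65 in C1q cells. The ratio was 6.51 against C1q cells with at least 10 C1q UMIs, and 1.59 against cells chosen by Adgre1 and Csf1r, so its size rests on the comparison cells. Keratin cells held 37.7% of all Cxcl5 UMIs in the tumour library and these macrophages 24.0%. Ccl17, a chemokine for CCR4-positive T cells, was also uneven, with 108 UMIs in 14 cells, 73.1% of them in 5 cells, and 0 in the C1q cells. It was at least 7.91-fold higher, and it was named after its values were seen.

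**Figure D3:**
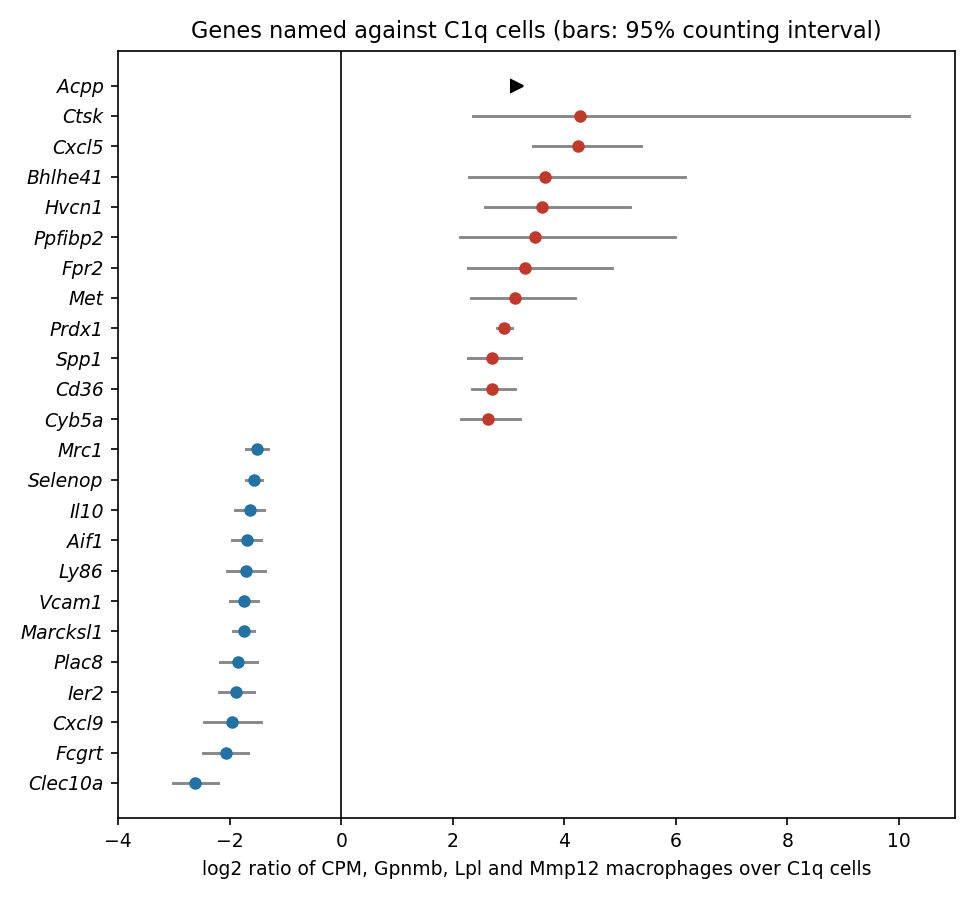
Log2 ratio of CPM, Gpnmb, Lpl and Mmp12 macrophages over C1q cells, for the 24 genes named by rank, with 95% counting intervals as bars (Acpp, with 0 UMIs in C1q cells, is drawn as a lower bound). The 12 higher genes lie between 2.63 (Cyb5a) and 4.29 (Ctsk) beside the bound of 3.16 for Acpp, and the 12 lower genes between −2.62 (Clec10a) and −1.51 (Mrc1).

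The lower genes that ranked first were Clec10a, Fcgrt, Ier2, Marcksl1, Plac8, Vcam1, Cxcl9, Aif1, Selenop, Il10, Ly86 and Mrc1. Clec10a, a galactose-binding lectin of macrophages and dendritic cells, stood at 46.8 CPM (37.7 to 57.3) against 287 (239 to 342), a log2 ratio of −2.62 (−3.02 to −2.22). Mrc1, the mannose receptor, stood at 302 CPM against 863 (−1.51, −1.70 to −1.32) and Selenop, the selenium carrier, at 481 against 1428 (−1.57, −1.72 to −1.42). Mrc1 was still found in 156 of the 337 cells. Il10, a cytokine that restrains inflammation, stood at 155 CPM against 484, and 61 of its 305 UMIs came from 1 cell. Cxcl9, a chemokine induced by interferon gamma, stood at 37.1 CPM against 143 (−1.95), and was at −0.68, under 2-fold, when cells with a sum of at least 3 were taken.

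The differences changed when the cells were matched for C1q. When only the 126 macrophages with 5 or more C1q UMIs were set against the C1q cells, a comparison chosen after the data were seen, 38 of 1822 genes measured (2.09%) were over 2-fold higher and 19 (1.04%) over 2-fold lower. Of the same 1822 genes, 61 were higher and 89 lower with all 337 macrophages. All 12 lower genes named above were then nearer to 0 and 8 of them were no longer over 2-fold lower, with Mrc1 at −0.53, Selenop at −0.51 and Il10 at −0.68. Clec10a (−1.54), Ier2 (−1.39), Marcksl1 (−1.66) and Plac8 (−1.77) were still over 2-fold lower, the last pair close to their former ratios of −1.75 and −1.85. The 5 higher genes with enough UMIs were also nearer to 0 but still over 2-fold higher, at 1.55 for Cyb5a, 1.75 for Prdx1, 2.19 for Cd36, 2.37 for Spp1 and 3.11 for Cxcl5. When the comparison cells were chosen instead by at least 2 UMIs of Adgre1 and Csf1r, also after the data were seen, 11 of the 12 higher genes were again over 2-fold higher, Met only just (1.02), and Fpr2, a receptor for formyl peptides, turned to −0.30 from 3.29. Against these cells 6 of the 12 lower genes were no longer over 2-fold lower, among them Mrc1 at −0.28, while Plac8 was at −3.49. That choice did not leave out monocyte cells, which had 174 CPM of Fpr2 and 2779 of Plac8. C1q cells had 13.9 and 312 CPM, and the part of monocyte cells in these ratios was not tested.

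Of 19 measured genes of the lipid-associated macrophage list, which holds lysosomal and surface genes beside those of lipid handling, 8 were over 2-fold higher than in C1q cells and 1 was lower, with a median log2 ratio of 0.92. Beside Spp1 and Cd36, the higher genes were Itgax (1.93), Anpep (1.80), Lipa (1.43), Cd9 (1.41), Lgals3 (1.39) and Fabp4 (1.38). Lipa, the lysosomal lipase that hydrolyses cholesteryl esters, stood at 309 CPM against 113, and Lgals3, a galactose-binding lectin of phagocytes, at 3307 against 1259. Fabp5, which carries fatty acids in the cytoplasm, stood at 2935 against 1504 CPM (0.96, 0.85 to 1.08), just under the limit. Trem2, the lipid-sensing receptor, stood at 151 against 81.0 CPM (0.88, 0.39 to 1.45). Apoe, which carries lipid out of macrophages, was the 1 lower gene, at 1072 against 2659 CPM (−1.31, −1.42 to −1.21). In the 126 cells with 5 or more C1q UMIs Apoe stood at 2344 CPM, and in the other 211 at 217 CPM.

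Of 4 measured genes of sterol efflux and PPAR targets, Soat1, which esterifies cholesterol, was over 2-fold higher (1.01, 0.69 to 1.36) and Pltp lower (−1.52). The efflux pumps Abca1 (−0.27) and Abcg1 (0.01) differed little.

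Lysosome genes did not move as one. Of 15 measured genes of lysosome acidification and osteoclasts, 4 were over 2-fold higher than in C1q cells and 0 lower, with a median of 0.25. Beside Ctsk these were Atp6v0d2, a subunit of the vacuolar proton pump that is abundant in osteoclasts (181 against 23.1 CPM, 2.90, 2.07 to 4.04), Mitf, a transcription factor for lysosome and osteoclast genes (1.48, 0.69 to 2.51), and Atp6v1c1 (1.34). Other pump subunits, Atp6v1b2 (0.47), Atp6v1a (0.33) and Atp6v0d1 (0.25), were under 2-fold, and the transcription factor Tfec (0.03) and the membrane proteins Lamp1 (−0.16) and Lamp2 (−0.01) lay close to 0. Acp5, tartrate-resistant acid phosphatase, stood at 262 against 160 CPM (0.70).

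Of 10 measured matrix genes, 2 were over 2-fold higher, both collagenases. Mmp13 stood at 362 CPM in 108 cells against 62.5 CPM (2.51, 1.98 to 3.15), and Mmp8, a collagenase also of neutrophils, at 119 against 23.1 (2.30, 1.46 to 3.45), beside the higher sum of neutrophil markers given above, whose part was not tested. Of the Mmp13 UMIs in the tumour library, these cells held 52.3%. Monocyte cells had 0 UMIs of Mmp13, while Mmp8 was at 0.33 over them (−0.11 to 0.83). Mmp14, a membrane protease, stood at 249 against 171 CPM (0.53), while Fn1 (−0.32) and Thbs1 (−0.46) were slightly lower.

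Of 14 measured iron, haem and antioxidant genes, 5 were over 2-fold higher and 1 lower, with a median of 0.56. Fth1, the ferritin heavy chain, stood at 61215 CPM against 22363 CPM in C1q cells (log2 ratio 1.45, 1.42 to 1.48). Per cell it ranged from 64.8 to 1985 UMIs in 10000, and 279 of the 337 cells (82.8%) lay above the C1q cells' median. Gclm (1.87) and Gclc (1.03), the subunits of the enzyme that begins glutathione synthesis, and Slc7a11 (1.06), the cystine importer, were higher with Prdx1. Slc7a11 was over 2-fold lower than in monocyte cells (−1.14). Slc40a1, the iron exporter ferroportin, was lower (39.1 against 106 CPM, −1.45). Hmox1, haem oxygenase (0.16), Txnrd1 (0.55) and Sqstm1 (−0.08) stayed within 2-fold. Among the C1q-positive macrophages alone the list's median was 0.07.

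Lectins of the cell surface, drawn here from several lists after their values were seen, differed in both directions. Clec10a and Mrc1 were lower, as given above, and Clec4e stood at 0.33. Clec4n, which encodes dectin-2, stood at 928 against 245 CPM (1.91, 1.64 to 2.22), Clec7a, which encodes dectin-1, at 1587 against 423 (1.90, 1.69 to 2.13) and Clec4d at 432 against 169 (1.35). Dectin-1 and dectin-2 bind sugars of the fungal wall. Marco, a scavenger receptor, stood at 130 against 27.8 CPM (2.17), whereas Msr1 (0.21), Lrp1 (0.08) and Axl (−0.46) did not differ by 2-fold.

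Inflammatory genes showed no common direction. Of 12 measured, 3 were over 2-fold higher (Clec4n, Clec4d and Inhba, an activin subunit at 1.99) and 1 was lower (Osm, −1.32), with a median of −0.55. Over monocyte cells Clec4n was at 1.80, Clec4d at 0.18 and Inhba at 0.06. Il1b, a cytokine of the inflammasome, stood at 1790 against 3142 CPM (−0.81), Tnf at 309 against 470 (−0.60) and Ptgs2, the inducible cyclooxygenase, at 526 against 1027 (−0.97). Among 9 CXC chemokines only Cxcl5 was over 2-fold higher and only Cxcl9 lower. Cxcl2 (5234 against 5605 CPM), another neutrophil chemokine, and Pf4 (4629 against 4934 CPM), platelet factor 4, were at close levels. Cxcl3 stood at 1381 against 703 CPM (0.97). Among 11 CC chemokines, Ccl17 was higher, and Ccl8 (631 against 1437 CPM, −1.19) and Ccl12 (−1.52) lower, with a median of −0.37. Both attract leukocytes.

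Low medians were those of the mannose receptor programme, of monocyte genes (−1.12), of immediate-early genes (−0.98) and of interferon response. The 5 measured monocyte genes went both ways, with Plac8, Ccr2 (−1.72) and Nr4a1 (−1.12) lower but Ly6c2 over 2-fold higher (1.67) and F10 at 0.71, and their median was −0.10 against C1q cells with at least 10 C1q UMIs. Of the 123 Ly6c2 UMIs, 70 lay in the 46 cells just inside the cut, and the 291 other macrophages had 29.5 CPM against 18.5 in C1q cells, less than 2-fold apart. Of 6 measured genes of the mannose receptor programme, 5 were over 2-fold lower, from −1.15 (Ear2) to −2.62 (Clec10a), and 0 higher, with a median of −1.32. Of 9 interferon response genes, 4 were lower (Ifit1, Rsad2, Gbp2 and Gbp5, from −1.01 to −1.33) and 0 higher, with a median of −0.89. The 6 MHC class II genes were between −0.98 (H2-DMa) and −0.40 (H2-Ab1), all under 2-fold, with Cd74 at 2706 against 4107 CPM. In the C1q-positive macrophages the medians of the mannose receptor, interferon and MHC class II lists were −0.51, −0.48 and −0.08. Of 9 genes of resident-type macrophages and complement, 2 were lower (Aif1, −1.70, and Selenop) and 0 higher, while Csf1r (−0.20) differed little.

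**Figure D4:**
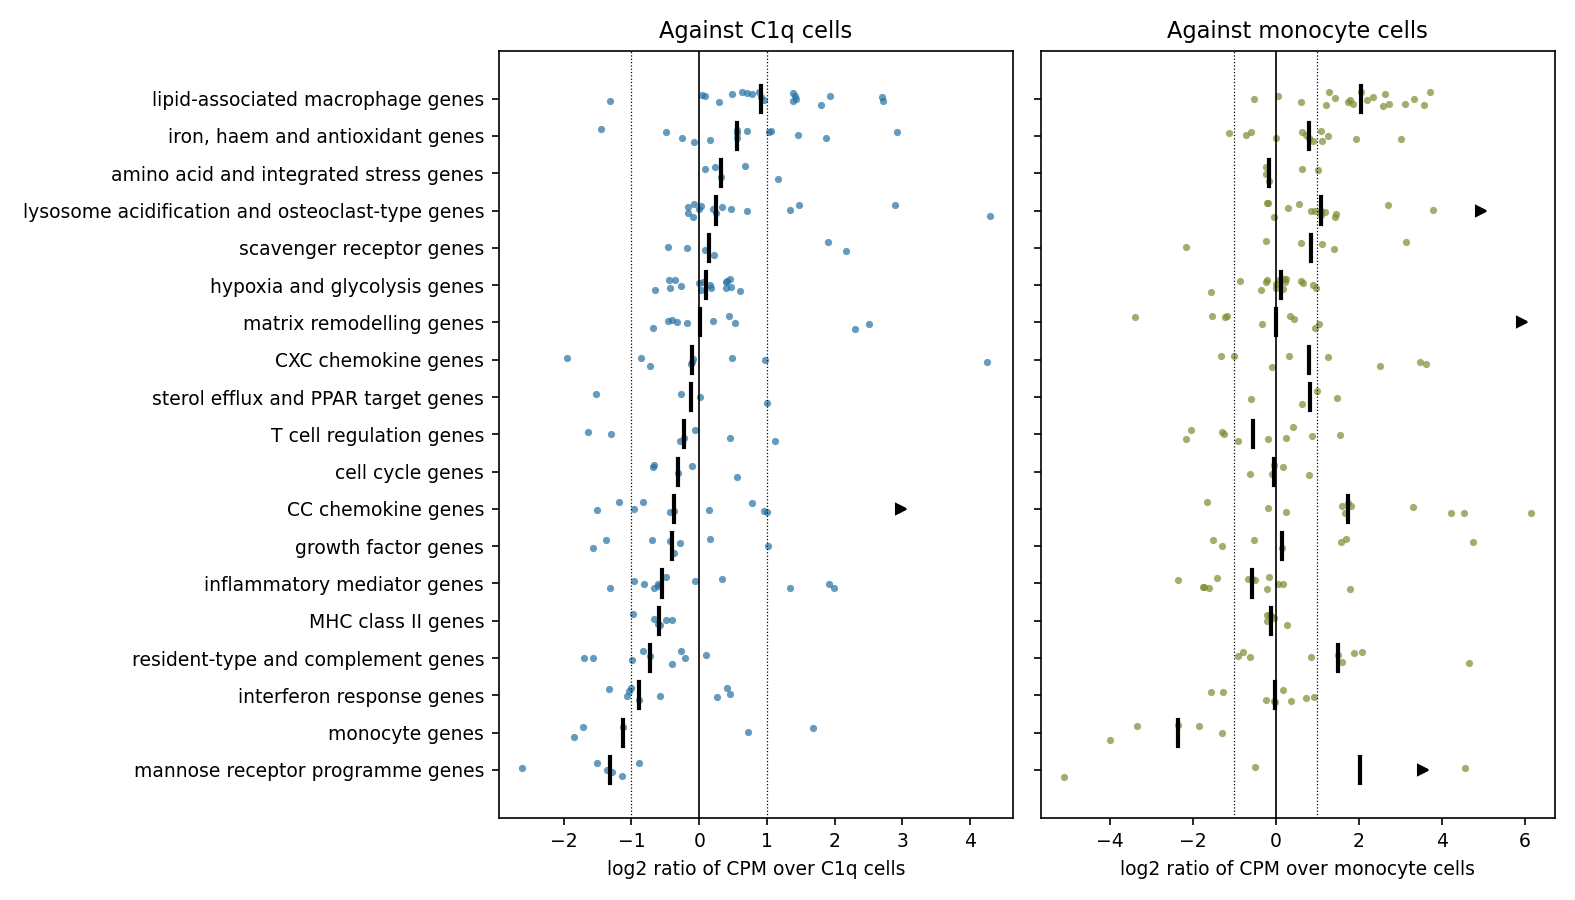
Log2 ratios of single genes (points) in 19 gene lists, for the Gpnmb, Lpl and Mmp12 macrophages over C1q cells (left) and over monocyte cells (right), with the list median as a black bar, dotted lines at 2-fold and black triangles for lower bounds against 0 UMIs. Over C1q cells the medians run from −1.32 (mannose receptor programme) to 0.92 (lipid-associated genes), and over monocyte cells the former rests on 4 genes, of which Mrc1 and Retnla are higher and Chil3 is lower, with a median of 2.04, or 1.53 with Retnla at its bound.

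Hypoxia and glycolysis genes did not separate the groups. Of 16 measured, 0 were over 2-fold higher or lower than in C1q cells, with a median of 0.11. Slc2a1, the glucose transporter GLUT1, was at 0.61, Vegfa at −0.27 and Ldha at 0.03. Cell cycle genes were also within 2-fold, 5 of 5 measured, with a median of −0.32. Of 7 genes that regulate T cells, Il10 and Il4ra (−1.30) were lower and Tnfrsf9 higher (1.11), and Cd274, which encodes PD-L1, stood at 194 against 224 CPM (−0.22). Of 8 growth factor genes, Areg (−1.57) and Pgf (−1.38) were lower and Csf1 (1.01, 0.14 to 2.18) higher. Of 5 genes of stress and amino acid supply, Ddit3 was higher (1.16, 0.36 to 2.21).

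The study concerned tumour-derived semaphorin 3C and the lipoxygenase ALOX12 in venules, and 5 genes of a list around them, which also takes in other lipoxygenase and cyclooxygenase genes, could be measured here, of which 2 were over 2-fold higher and 0 lower. Nrp2, the neuropilin that binds semaphorin 3C, stood at 277 CPM in these macrophages against 116 in C1q cells (1.25, 0.84 to 1.71). At equal depth it was found in 21.2% of the macrophages (16.9 to 26.0), 10.8% of C1q cells, 8.42% of keratin cells and 1.39% of T cells. Plxna1, a co-receptor, stood at 64.0 against 27.8 CPM (1.15, 0.35 to 2.20), and Nrp1 at 80.8 against 57.9 (0.46). Alox5ap, which assists leukotriene synthesis (−0.69, −0.93 to −0.43), and Ptgs1, a cyclooxygenase (−0.38), lay on the other side of 0.

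The second comparison was with 175 monocyte cells, which held at least 5 UMIs over Ly6c2 and Plac8, fewer than 5 C1q UMIs and fewer than 20 of S100a8 and S100a9 (median 2366 UMIs). Of 3402 measured genes, 298 (8.76%) were over 2-fold higher in the macrophages and 297 (8.73%) over 2-fold lower, with a median log2 ratio of −0.01. Both shares were higher than against C1q cells.

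Of the 8 genes that ranked first on the higher side, 5 had 0 UMIs in the monocyte cells. Mmp13, in first place, was at least 61.7-fold higher, Atp6v0d2 at least 30.8-fold, Bhlhe41 at least 17.2-fold, Plpp3, a lipid phosphate phosphatase, at least 15.7-fold and Mgl2, a lectin, at least 15.6-fold. The chemokines Ccl8 (631 against 7.83 CPM, 6.16, 4.97 to 8.21) and Ccl7 (1017 against 43.1 CPM, 4.53) ranked among them, ahead of Bhlhe41, Plpp3 and Mgl2, and Mrc1 (302 against 11.7 CPM, 4.57) came last. With the rule applied to cells thinned to 2000 UMIs, Ccl7 was no longer over 2-fold higher (0.34) and Ccl8 was at 3.62. Mrc1, Ccl8 and Ccl7 thus stood between the levels of monocyte and C1q cells, while Mmp13, Atp6v0d2 and Bhlhe41 stood above both. Lower than in monocyte cells were Chil3 (33.5 against 1168 CPM, −5.11), a chitinase-like protein, Mefv (−4.03), Ifitm6 (−4.01), Tppp3 (−3.63), Sorl1 (−3.55), Vcan (−3.39), Hp (−3.35) and Trem1 (−3.30). These 8 had between 10.2 and 46.2 CPM in the macrophages.

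The lists ordered differently against monocyte cells. Of 19 lipid-associated genes 16 were over 2-fold higher and 0 lower (median 2.06), led by Fabp4 (3.72), Spp1 (3.56) and Ctsl (3.33), a lysosomal protease. Cd9, over 2-fold higher than in C1q cells, was at 0.06 over monocyte cells. Of 15 lysosome genes 8 were higher (median 1.08) and of 11 CC chemokines 8 (median 1.74), with Ccl5 lower (−1.66). Igf1, insulin-like growth factor, stood at 78.8 against 1.96 CPM, the latter from 1 UMI (4.75, 2.83 to 10.6). All 5 measured monocyte genes were lower, and 5 of 13 inflammatory genes were lower, among them Il1b (1790 against 9155 CPM, −2.35). Of 13 iron, haem and antioxidant genes 5 were over 2-fold higher than in monocyte cells, among them Prdx1 (3.01) and Fth1 (1.27). Slc7a11 was the 1 lower gene (−1.14), with Srxn1 at −0.73 and Txnrd1 at −0.61, and the median was 0.80. Both comparisons share the macrophages.

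Among the 337 cells themselves, genes varied with the share of UMIs taken by Gpnmb, Lpl and Mmp12, which ran from 7.25 to 429 per 10000. The cells were set in 4 bands of this share, of 85, 84, 84 and 84 cells with medians of 16.2, 30.3, 56.9 and 152 per 10000. Median depth was 5406, 4369, 4885 and 4577 UMIs, so it did not follow the bands. Prdx1 stood at 2682, 3272, 7896 and 18879 CPM from the lowest to the highest band, against 1067 in C1q cells. Cd36 stood at 355, 453, 859 and 1904 CPM, Met at 99.7, 108, 197 and 524 and Hvcn1 at 69.9, 89.7, 184 and 393. Each of these genes stood higher in each band than in the one before.

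Of 1580 genes measured in the outer bands, 76 were over 2-fold higher in the highest band than in the lowest and 109 lower, 4.81% and 6.9%. After leaving out the genes of the rule, those that ranked first were H2-M2, a non-classical MHC class I gene (340 against 26.2 CPM), Prdx1 (log2 ratio 2.81), Mfge8, which bridges dying cells to phagocytes (381 against 45.5 CPM, 3.04), and Cd36 (2.42). Hvcn1, Met, Mmp13, Alas1, which begins haem synthesis (2.37), Bhlhe41 and Clmp followed. The genes that were lower were led by Selenop (832 to 63.5 CPM), Il10 (288 to 18.4), Ccl8 (1039 to 149) and Apoe (1773 to 321). Cells with 5 or more C1q UMIs made up 45.9%, 51.2%, 34.5% and 17.9% of the 4 bands. Fabp5 varied less, at 2291, 2504, 3408 and 3614 CPM, and Csf1r not in one direction, at 224, 223, 296 and 227 CPM.

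**Figure D5:**
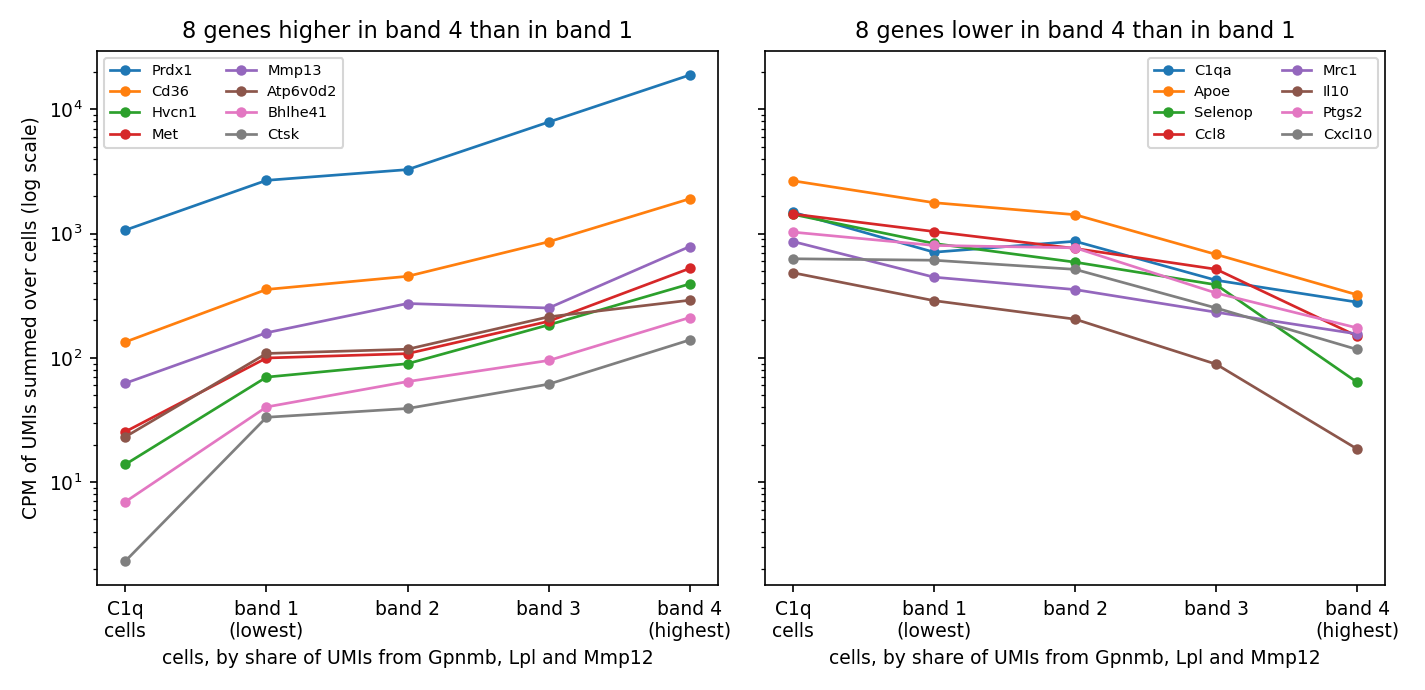
Level in CPM (log scale) of 16 genes in C1q cells and in the 4 bands of the 337 macrophages, ordered by the share of UMIs from Gpnmb, Lpl and Mmp12. Prdx1 goes from 2682 to 18879 CPM between the outer bands, while Selenop goes from 832 to 63.5 CPM. The bands were cut on the genes that chose the cells, and the lines join levels of 1 library.

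A split by C1q shared leading genes with the bands, such as Selenop, Il10, Ccl8, Apoe and, on the other side, Prdx1, Met, Hvcn1 and Clmp. The 126 cells with 5 or more C1q UMIs had a median of 5720 UMIs, and the 211 others of 4488. Of 2802 genes measured, 123 (4.39%) were over 2-fold higher in the former and 71 (2.53%) lower. Leading genes on the C1q side were Ccl8 (1403 against 112 CPM, 3.64), Apoe (3.43), Selenop (2.97) and Mrc1 (600 against 103 CPM, 2.54), with Fcgrt, Fcgr4, Vcam1, Gatm, Il10 and Trf. Genes that were lower on that side were Acpp (8.85 against 97.7 CPM, −3.37), Clmp, Serpinb2, Ly6c2 (16.4 against 93.4, −2.46), Prdx1 (3579 against 11110, −1.63), Met, Hvcn1, Inhba, Cav1 and Cxcl3. Mmp13 and Atp6v0d2 did not follow Prdx1, at 587 against 212 CPM and 210 against 161 CPM.

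The 49 cells with a Cxcl5 UMI were spread over the bands, with 13, 9, 11 and 16 in order, and had a median of 6101 UMIs against 4612 in the other 288. Of them 9 held 5 or more C1q UMIs (18.4%), against 117 of the others (40.6%). Of 2802 genes, 47 (1.68%) were over 2-fold higher with Cxcl5 and 190 (6.78%) lower. Ly6c2, a surface antigen of inflammatory monocytes, stood at 205 against 28.4 CPM (2.84), and Ppbp, another neutrophil-attracting chemokine, at 270 against 68.7 (1.98). Marco stood at 294 against 90.8 CPM and Slpi, an inhibitor of neutrophil elastase, at 1225 against 466. Cald1 (2.38) and Dcn (1.63), genes better known from fibroblasts, were also higher in the 49 cells, with Dcn at 257 against 83.2 CPM, Timp1 at 118 against 15.1, Cxcl14 at 102 against 1.89 and Cxcl12 at 49.8 against 1.26. The 6 fibroblast markers summed to 281 CPM in the 49 cells and 89.5 in the others, with 2 of the 6 at 0 in both, and the part of fibroblast RNA in this was not tested. Mgl2 had 0 UMIs in the 49 cells, and Selenop (39.3 against 587 CPM), Cxcl10 (44.6 against 461), Rsad2 (78.7 against 720) and Apoe (163 against 1290) were lower in them.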

How the data were processed

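Single cells of pooled primary tumours and pooled lymph nodes were profiled as droplet 3′ libraries, 1 library per tissue. The authors deposited raw UMI counts per gene and cell for 22620 genes. The submitters' processing notes name Cell Ranger 2.1.1 and the GRCm38 build, whereas the file header names cellranger 5.0.0. Cells over the mitochondrial limit were still in the deposited counts, so not all of the study's filters on cells had been applied to them. The study also filtered doublets with DoubletFinder, and whether before these counts is not given in the sources used here.

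Cells were chosen by UMI limits on raw counts, with the limits given above. The members, gene lists and comparisons were chosen with earlier results of these data known. Counts were summed over the cells of a group and divided by the group's total (CPM). Genes with at least 100 UMIs over both groups were compared, with 0.5 UMIs added to both groups for the log2 ratio. Ratios against 0 UMIs are bounds from a limit of 3 UMIs over the group. Since a group came from 1 library, differences were not tested, and UMI totals set the intervals. Named genes were the 12 highest and 12 lowest against C1q cells and 8 of each against monocyte cells, ranked by the interval's end nearest 0 among genes found in at least 10% of the higher group's cells. Genes of the rule and mitochondrial, ribosomal and haemoglobin genes were left out, and genes of the lists were added, except 2 list genes that are not reported here and were left out of the list counts and medians. Doublets were not removed by the rule. Scrublet, run in scanpy with an expected share of 6% and 30 components, marked 633 of 9989 cells (6.34%), 6 of them among the 337. Alternatives changed the UMI limits, cell depth, gene minimum, scaling, doublets and comparison cells. Calculations were tested on simulated counts. The tools were scanpy 1.11.5 and anndata 0.12.19, with scipy 1.17.1, numpy 2.4.6, matplotlib 3.10.9 and pandas 2.3.3 under Python 3.11.15, with RefSeq upstream sequences of GRCm38.p6.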

Additional observations from a re-analysis of the deposited data

Results flagged for a closer look

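Cells that met the rest of the rule were also found outside the cells compared. In the lymph node library 5 cells met it, with a median of 6141 UMIs, and together they held 2 UMIs of Gpnmb, 22 of Lpl and 34 of Mmp12 but 0 of Adgre1. None of the 5 held 5 or more C1q UMIs, and 0 of them shared a barcode with the tumour library. In the tumour library 31 cells met the rule but lay over the mitochondrial limit, with Mmp12 at 3881 CPM and Prdx1 at 2332 CPM, and 20 of them held 5 or more C1q UMIs. A further 46 cells lay over the keratin limit, with a median of 26898 UMIs, Mmp12 at 359 CPM and Krt8 at 1138 CPM.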

How the results depend on the processing

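No paired analysis was possible because each tissue was 1 library, and for the same reason no replicate could be left out. Applied to cells thinned to 2000 UMIs, the rule kept 181 cells. With a minimum of 20 UMIs per gene, 531 genes were over 2-fold higher and 502 lower than in C1q cells, and 989 higher and 718 lower than in monocyte cells. With a minimum of 500 UMIs these counts were 41, 37, 82 and 67. The minimum sets how many genes are compared. With the C1q-positive macrophages alone, chosen after the data were seen, 38 genes were higher and 19 lower than in C1q cells, of 1822 measured. Fpr2 turned to −0.30 against cells chosen by Adgre1 and Csf1r, also chosen after the data were seen. That choice did not leave out monocyte cells, and the cause was not tested. Of 668 values of named genes over 19 settings, 568 stayed within the counting interval of the value reported. Some of these settings could not move a ratio, so the 568 overstates how stable the ratios were. Minimums of 20 and 500 UMIs only change which genes are compared. An upper limit on detected genes left the groups at 337, 96 and 175 cells. Scaling shifted the ratios only by the medians of −0.04 and −0.01. The ratio of Cxcl5 ranged from 1.59 to 6.51, of Ctsk from 1.26 to 5.75 and of Ccl7 over monocyte cells from 0.34 to 4.91. Genes with few UMIs in the comparison cells have wide intervals, and mice cannot be told apart.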

Other observations

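Immediate-early genes, a list added after values had been seen, were lower in the Gpnmb, Lpl and Mmp12 macrophages than in C1q cells for 10 of 20 measured genes and higher for 0, with a median log2 ratio of −0.98. Fos was at −1.26, Egr1 at −1.20, Zfp36 at −1.30 and Ppp1r15a at −1.48. Of 9 measured heat shock genes, added in the same way, 0 were over 2-fold higher or lower, with a median of −0.11. These genes respond to handling and dissociation of tissue, and the part of dissociation in the other results was not tested.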
